A study of Physcomitrium patens with 47 samples.

Results

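The genes described here are 732 genes of the moss Physcomitrium patens whose identifiers (IDs) begin with Pp3c2 and whose transcripts were about doubled when COX11 was knocked out. They were chosen from measured values. Each count was divided by the total of its library and scaled to counts per 1e6 counts (CPM), and genes were kept if their mean over the 18 wild-type (WT) libraries was at least 5 CPM. For each gene the difference in mean log2(CPM+1) between COX11 KO and WT was taken at each of 3 times of day and averaged, and genes with an average difference from 0.5 to 1.5 were taken. Of 32926 genes in the deposited table, 1872 carry the Pp3c2 prefix and 877 of these reached the floor in WT. The 732 members are what remained after 84 genes below 0.5 and 61 above 1.5 had been set aside. The COX11 KO values of the members, and any count of calls in that comparison, are therefore a description from which nothing is read.

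The study knocked out parts of the respiratory chain. COX11 KO plants (lines 150 and 152) and NDUFA5 KO plants (lines 46 and 48) were set against WT plants, and in each knockout a resistance cassette interrupts the gene, placed there by homologous recombination. All plants were a mixture of protonema filaments and young gametophores, grown with 12 h of light and 12 h of dark in closed boxes, and were frozen at zeitgeber time 0 (ZT0, at the end of the night), ZT2 or ZT6, in hours after lights on. COX11 KO had 5 libraries at each time, NDUFA5 KO had 4, 5 and 5, and WT had 6, 4 and 8. Plants for ZT0 were wrapped in foil overnight and frozen under dim green light, unlike those of the later times. Whether a line's libraries stem from separate cultures is not stated, and the spread behind each p-value may be technical.

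Mitochondrial respiration passes electrons from NADH through complex I and onwards to oxygen at complex IV. COX11 is known, from work in yeast, to help insert copper into complex IV, and NDUFA5 is an accessory subunit of complex I. In the naming scheme of the moss annotation the letters and number before the _ sign stand for a chromosome, and the number after it rises along that chromosome. Neither the deposited files nor the reference used here give positions, and 0 of the 732 IDs could be matched to a gene name. The order of the IDs is therefore used in place of a position, and members are described by ID, level and response, not by function.

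Libraries held 4060158 to 10349604 counts in genes, with a median of 5659267. In bulk RNA, fewer cells of a type and less RNA per cell cannot be told apart. The WT libraries lay close together in the members, whereas 1 knockout library, NDUFA5 KO 48-1 at ZT2, stood apart from all other knockout libraries. One library at ZT6, 46-3, is given to line 46 by its title and to line 48 by its characteristics. The title was followed. Sample codes begin with A or Z, for a reason the labels do not state. At ZT2 all 3 libraries of line 46 carry Z and both of line 48 carry A, so line and letter cannot be told apart at that time. All 4 WT libraries at ZT2 carry A, so line 46 against WT at ZT2 also differs in letter throughout, and line 48 does not.

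By the rule, the members sat in a band around a doubling in COX11 KO, and the values here only describe that band. Over the 732 genes the average difference from WT had a median of 1.09 on the log2 scale, a 2.13-fold level, with quartiles of 0.91 and 1.25. By time the medians were 1.12 (ZT0), 1.06 (ZT2) and 1.10 (ZT6). Single times were wider than the average, and 446 members (60.9%) were between 0.5 and 1.5 at all 3 times. At ZT0, 4 members were at or below WT, at ZT2 0 and at ZT6 9. Just inside the lower bound stood Pp3c2_13400, Pp3c2_23140 and Pp3c2_30340 (0.503, 0.509 and 0.511), and just outside it 3 genes between 0.495 and 0.498. At the upper bound the last 3 inside lay between 1.496 and 1.498, and the first 3 outside between 1.502 and 1.530. The values run on across both bounds, and the bounds do not mark a gap.

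No other ID prefix had such a band. Over the other 26 prefixes the median average difference in COX11 KO was between 0.095 and 0.16, and 8.44% to 13.5% of their genes fell in the same range. Of all 13639 such genes above the WT floor, 1401 (10.3%) did. Among Pp3c2 genes above the floor the share was 83.5%.

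The COX11 KO libraries chose the members, so their mean level follows from the rule and only their spread is described. The median member stood 1.10 ± 0.039 above WT in line 150 (SD, n = 8) and 1.08 ± 0.045 in line 152 (n = 7). Over all 15 libraries it ran between 1.01 and 1.17, and over the 18 WT libraries, each set against the other WT libraries of its time, between -0.05 and 0.07. Genes of other prefixes were also a little higher on this scale, by a median of 0.12 ± 0.041, and the members exceeded them by 0.97 ± 0.015 in COX11 KO and by between -0.03 and 0.02 in the WT libraries. The members made up 9.81% ± 0.29 of the counts in COX11 KO libraries (n = 15), 9.19% ± 1.51 in NDUFA5 KO libraries (n = 14) and 4.77% ± 0.26 in WT libraries (n = 18).

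**Figure D1:**
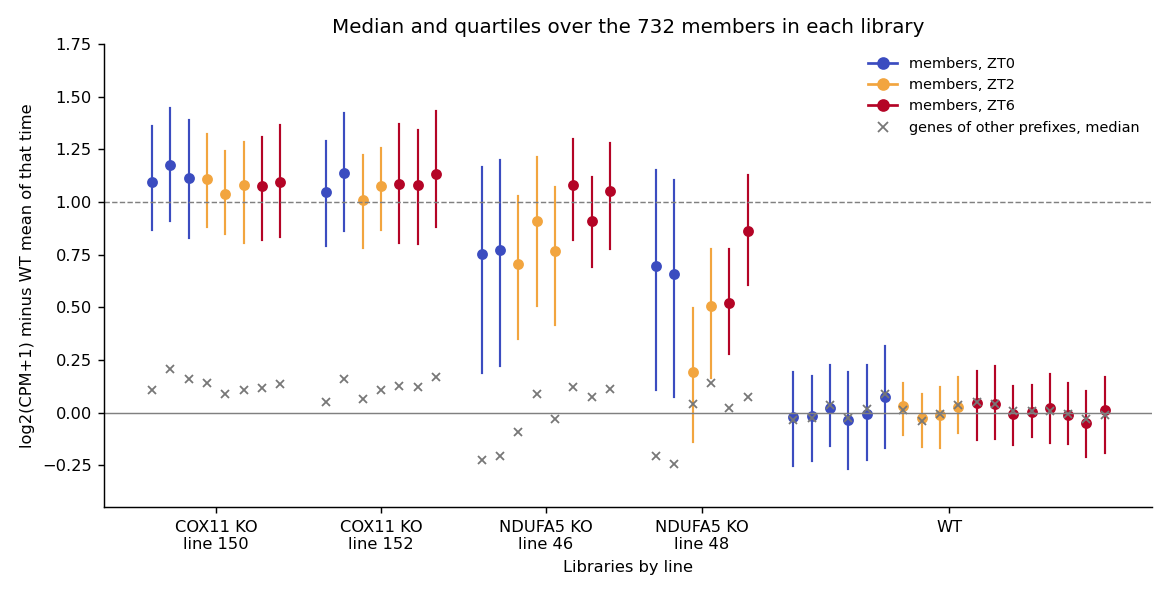
Each point is the median over the 732 members of log2(CPM+1) minus the WT mean of the same time in 1 library, with a bar from the lower to the upper quartile, and each cross is the median over genes of other prefixes. COX11 KO libraries lie between 1.01 and 1.17, NDUFA5 KO libraries between 0.19 and 1.08 with line 48 lower than line 46 on average, and WT libraries between -0.05 and 0.07.

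The libraries that chose the members also fix the calls of COX11 KO against WT, which are given only as a description and not as a test. By edgeR's quasi-likelihood calls (false discovery rate 0.05 over 18460 genes) 661, 649 and 648 members were higher in COX11 KO than in WT at ZT0, ZT2 and ZT6, where 19.9%, 13.7% and 20.7% of all genes tested were called higher. There were 0, 0 and 2 members called lower, where 20.7%, 16.2% and 23.1% of all genes were. In 534 members every COX11 KO library was above every WT library of its time, against 5.48% of all genes. All 732 members were among the genes tested.

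The COX11 KO lines were close to each other in the members. Between line 150 and line 152, with times averaged, edgeR called 0 members, as it called 0% of all genes. There were 11 members with p under 0.05 before adjustment, against 2.76% of all genes, and 0 calls by DESeq2. The log2 fold changes between the lines had quartiles of -0.07 and 0.06. The average difference from WT fell in the range from 0.5 to 1.5 for 716 members in line 150 alone and for 719 in line 152 alone. Both lines entered the rule, so these counts follow largely from it.

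The members with the highest WT levels had the smallest median difference. In 4 equal groups of 183 members, from the lowest to the highest WT level, the median average difference in COX11 KO was 1.19, 1.12, 1.10 and 0.98. The same groups stood at 0.89, 0.88, 0.85 and 0.83 in line 46 and at 0.60, 0.57, 0.57 and 0.56 in line 48. The WT values that formed the groups also enter each of these differences, in COX11 KO and in both NDUFA5 KO lines. The order of the groups is therefore not independent of them, and nothing is read from it. The floor was set on the same WT values, so the lowest group holds genes that were selected near its edge.

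Pp3c2_13670 had the highest WT level of the members. At ZT0 it had 8673, 8759 and 8104 CPM in line 150, 9131 and 8039 CPM in line 152, 19625 and 18661 CPM in line 46, 18260.1 and 17839 CPM in line 48, and between 3062 and 3719.9 CPM (median 3358) in WT. Both knockouts were above all WT libraries at that time, and NDUFA5 KO was above COX11 KO. At ZT2 it had 12426, 15505 and 12944 CPM in line 46 and 7105 and 9048 CPM in line 48, against 2840.0, 2996, 3098 and 2836 CPM in WT. At ZT6 line 46 had 9834, 9702 and 10228 CPM and line 48 had 6762 and 9654 CPM, against 1600.1 to 2550.3 CPM (median 2054) in WT. COX11 KO had 5343 to 6449 CPM at ZT2 and 4425 to 5689 CPM at ZT6. No knockout library of either gene overlapped with WT, and every library of line 46 was above every library of line 48 at each time. NDUFA5 KO was higher than WT by 2.63 ± 0.14, 1.89 ± 0.15 and 1.99 ± 0.12 on the log2 scale (SE; edgeR adjusted p = 5.0e-20, 4.3e-13 and 4.2e-16). Line 46 exceeded line 48 by 0.40 ± 0.085 with times averaged (adjusted p = 0.0084) and by 0.88 ± 0.15 at ZT2 (adjusted p = 6.9e-05).

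Pp3c2_6770 was second in WT level. At ZT0 line 46 had 3561 and 3374 CPM and line 48 had 2322 and 2598 CPM, against 810.1 to 2167 CPM (median 1789) in WT. At ZT2 line 46 had 2756, 3251 and 2911 CPM and line 48 had 2717 and 2719 CPM, against 1445, 1643, 1639 and 1609 CPM in WT. At ZT6 line 46 had 3412, 4199 and 4119.8 CPM and line 48 had 3553 and 2796 CPM, against 1734 to 3072 CPM (median 2538) in WT. NDUFA5 KO overlapped with WT at ZT6 and at no earlier time. NDUFA5 KO was higher by 0.99 ± 0.19 at ZT0 and 0.79 ± 0.20 at ZT2 (edgeR adjusted p = 1.9e-05 and 0.0017), and at ZT6 the difference of 0.38 ± 0.17 did not pass (adjusted p = 0.071).

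**Figure D2:**
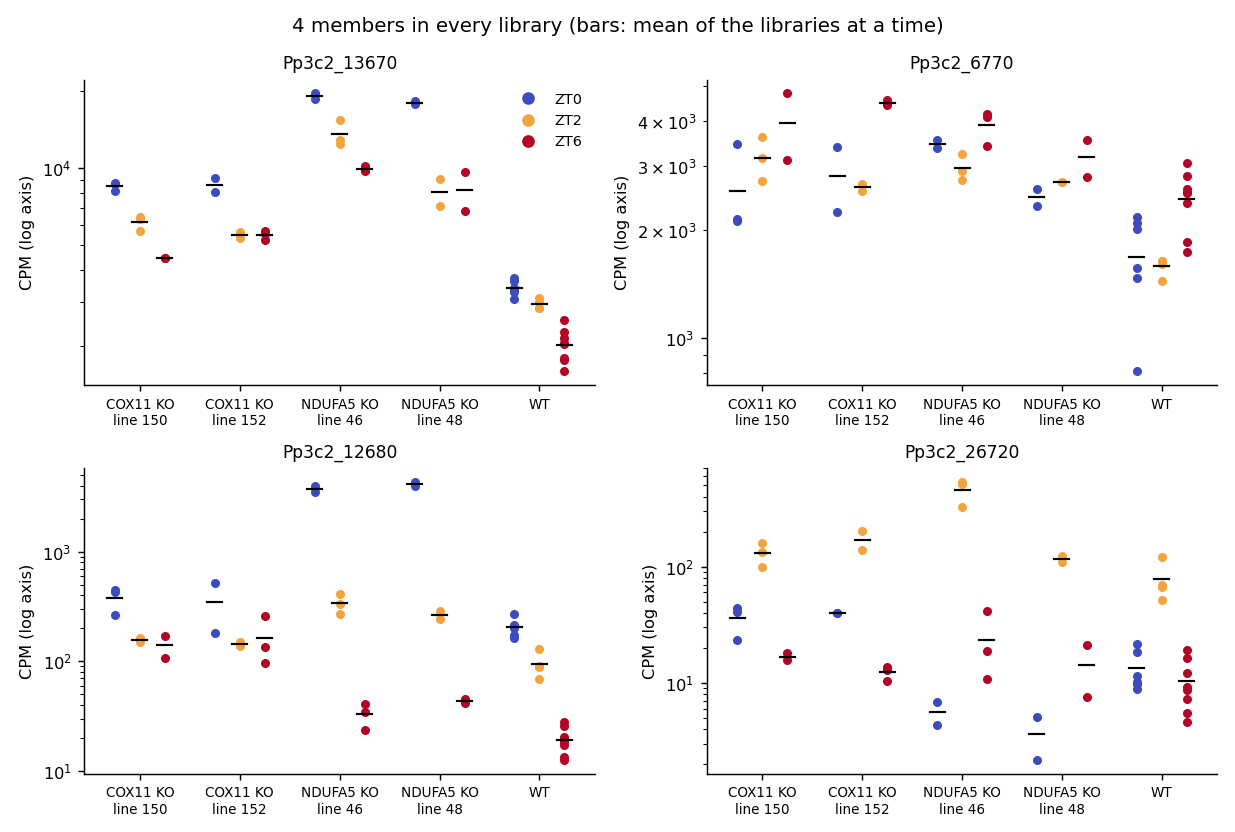
CPM of 4 members in every library, on log axes that differ between panels, with a bar at the mean of the libraries of a line at a time. Pp3c2_13670 is above WT in every knockout library, Pp3c2_12680 is at 3530.4 CPM or more in NDUFA5 KO at ZT0, and Pp3c2_26720 is higher in line 46 than in line 48 at ZT2.

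In NDUFA5 KO most members were also higher than in WT, but by less than a doubling and unevenly. The median member stood 0.87 ± 0.14 above WT in line 46 (SD, n = 8) and 0.57 ± 0.23 in line 48 (n = 6). At ZT0 line 46 had 0.75 and 0.77 and line 48 had 0.69 and 0.66. At ZT2 line 46 had 0.70, 0.91 and 0.77 and line 48 had 0.19 and 0.50. At ZT6 line 46 had 1.08, 0.91 and 1.05 and line 48 had 0.52 and 0.86. Every NDUFA5 KO library was above every WT library in this median, and the lines did not overlap at any of the 3 times.

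Set against genes of other prefixes in the same library, the members stood higher at ZT0 than these medians show. The median of the other genes lay between -0.25 and -0.20 in the NDUFA5 KO libraries at ZT0, and the members exceeded them by 0.98 and 0.98 in line 46 and by 0.90 and 0.90 in line 48. At ZT2 the excess was 0.80, 0.82 and 0.80 in line 46, and 0.15 and 0.37 in line 48. At ZT6 it was 0.96, 0.84 and 0.94 in line 46, and 0.50 and 0.79 in line 48. The spread over members was also wide at ZT0, with interquartile ranges of 0.98, 0.98, 1.05 and 1.03, against 0.43 to 0.52 at ZT6 in NDUFA5 KO and 0.39 to 0.48 at ZT0 in WT. Genes of other prefixes were spread widely at ZT0 too. Their edgeR log2 fold changes in NDUFA5 KO had quartiles of -0.75 and 0.47, and those of the members 0.33 and 1.33.

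In the library 48-1 at ZT2, 373 members (50.96%) were above every WT library of the time, against 38.7% of genes of other prefixes. In 48-2 at ZT2 it was 541 members (73.9%, against 45.6%), and in the other NDUFA5 KO libraries 459 to 696 members (62.7% to 95.1%, against 20.9% to 43.4%). In COX11 KO libraries it was 91.1% to 99.3% of the members, against 23.97% to 45.2% of genes of other prefixes. In the 4 COX11 KO libraries of code letter A at ZT2, the members exceeded genes of other prefixes by 0.94 to 0.97. COX11 KO libraries chose the members, so this level follows from the rule and cannot show an effect of the letter. In the 2 libraries of line 48 at ZT2, also of letter A, the excess was 0.15 and 0.37. There line 46 carries Z throughout, so line and letter cannot be separated within NDUFA5 KO. What sets line 48 apart at ZT2 was not tested.

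Over times, the average difference from WT was between 0.5 and 1.5 for 541 members (73.9%) in line 46 and for 410 (56.0%) in line 48. Of genes of other prefixes, 11.1% and 11.6% lay in that range. At or below WT stood 46 members in line 46 and 91 in line 48, against 7134 and 7047 of the 13639 genes of other prefixes. In either COX11 KO line 0 members did, which follows largely from the rule. Of the 84 Pp3c2 genes left out below 0.5, the median difference was -0.21 in line 46 and -0.38 in line 48. Of the 61 left out above 1.5 it was 1.54 and 1.22. Genes of other prefixes had medians of -0.03 and -0.02.

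**Figure D3:**
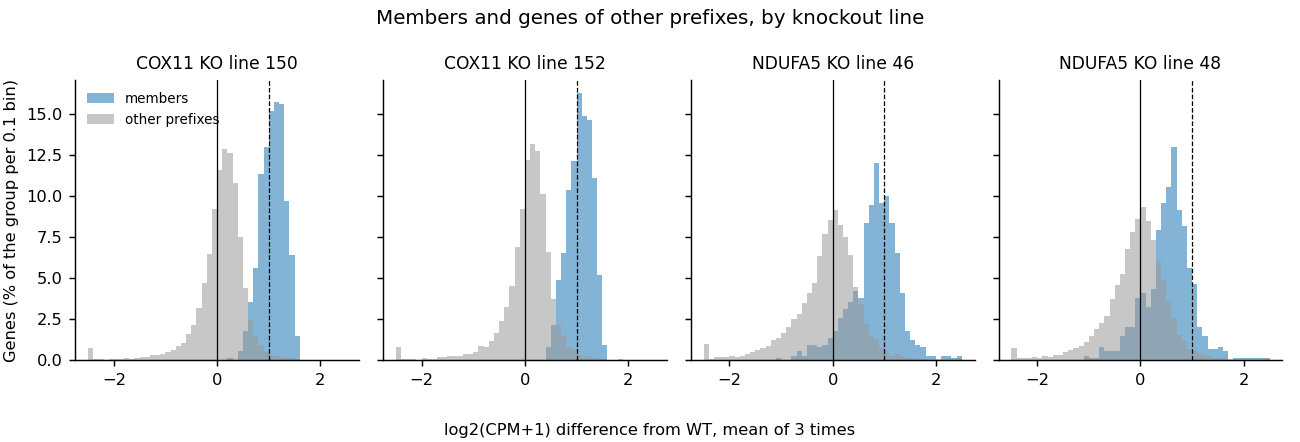
Share of the 732 members and of the 13639 genes of other prefixes in bins of 0.1 of the difference from WT, mean of 3 times, by line; genes beyond the axis are counted in the end bins. The members form a narrow peak near the dashed line at 1 in both COX11 KO lines, which chose them, and broader peaks at medians of 0.85 in line 46 and 0.58 in line 48.

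Tested gene by gene, most members were higher in NDUFA5 KO at each time. The WT libraries are those that also chose the members, so these counts are not independent of the choice. At ZT2 all 4 WT libraries carry code letter A and all 3 of line 46 carry Z. At ZT0, 531 members were higher and 59 lower than in WT, where 30% and 31.6% of all genes were called higher and lower. At ZT2, 470 were higher and 39 lower (22.9% and 21.1% of all genes), and at ZT6 612 were higher and 1 lower (18.7% and 20.5%). The median log2 fold change over members was 0.92, 0.60 and 0.75 at the 3 times, and over all genes -0.04, 0.04 and -0.02. With libraries scaled by their totals only, the median of all genes moved to -0.23, 0.11 and 0.16. The members stood 0.97, 0.56 and 0.77 above it, and with TMM also 0.97, 0.56 and 0.77. A scaling shifts all genes of a library almost alike, so this excess could hardly differ and is no test of the scaling. Called higher at all 3 times were 389 members (53.1%), against 7.72% of all genes. Called higher at none were 53 (7.24%), against 55.7% of all genes. No member was called lower at all 3 times. The share of all genes for this was not computed, so nothing is read from that count.

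By line, with times averaged, 640 members were higher and 23 lower in line 46 (29.9% and 30.1% of all genes), and 541 higher and 41 lower in line 48 (25.7% and 28.3%). Every NDUFA5 KO library was above every WT library of its time in 217 members (29.6%), against 3.59% of all genes. For line 46 alone it was 393 members (6.07% of all genes) and for line 48 alone 230 (5.5%). Within code letters, 518 members were called higher at ZT0 and 575 at ZT6 with libraries of letter Z only, where 27.8% and 15.4% of all genes were. With letter A only, where the NDUFA5 KO libraries are those of line 48, it was 244 members at ZT2 and 18.3% of all genes. At ZT2 the count was 191 without line 46 (14.05% of all genes), 533 without line 48 (20.7%) and 514 without library 48-1 alone (23.1%).

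Some members left the common shift far behind in NDUFA5 KO. At ZT0 Pp3c2_12680 had 3971 and 3530.4 CPM in line 46 and 4297 and 3958 CPM in line 48, against 162 to 269.9 CPM (median 207) in WT. At the same time Pp3c2_36840 had 498 and 444 CPM in line 46 and 578 and 536 CPM in line 48, against 17.9 to 34.3 CPM (median 28.5) in WT. Neither gene overlapped with WT, and both lines stood above it. Their log2 fold changes were 4.44 ± 0.23 and 4.41 ± 0.16 (SE; edgeR adjusted p = 5.0e-20 and 2.8e-25). At ZT6 Pp3c2_12680 had 97.3 to 258 CPM in COX11 KO and 23.8 to 45.6 CPM in NDUFA5 KO, against 12.7 to 27.9 CPM in WT, so that NDUFA5 KO overlapped with WT.

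Members that went against the shift were fewer. At ZT0 Pp3c2_17900 had 5.01 and 3.29 CPM in line 46 and 3.77 and 4.17 CPM in line 48, against 12.2 to 36.7 CPM (median 19.7) in WT. At ZT2 it had 28.7, 33.9 and 23.6 CPM in line 46 and 40.7 and 34.7 CPM in line 48, against 90.0, 88.5, 76.8 and 81.7 CPM in WT. It was lower in all NDUFA5 KO libraries at both times, with log2 fold changes of -2.20 ± 0.21 and -1.46 ± 0.17 (edgeR adjusted p = 4.9e-12 and 5.2e-09), while in COX11 KO at ZT0 it averaged 50.4 ± 5.72 CPM (n = 5). Pp3c2_30600 was lower at ZT0 (-2.29 ± 0.74, adjusted p = 0.0067), a call that ended without line 46 and under the replicate block. At ZT2 Pp3c2_9980 had 21.6, 16.6 and 16 CPM in line 46 and 18.5 and 16.4 CPM in line 48, against 45.5, 49.7, 54.8 and 39.6 CPM in WT, and was lower in both lines (-1.48 ± 0.14, adjusted p = 5.9e-11). Pp3c2_9900 was the 1 member lower at ZT6 (-0.51 ± 0.16, adjusted p = 0.011), and it no longer passed without library 46-3 (-0.39). In the lines taken singly, Pp3c2_17900 and Pp3c2_30190 led the lower members of both, and Pp3c2_30190 was at -1.0 ± 0.29 in line 46 and -1.35 ± 0.34 in line 48 (adjusted p = 0.0028 and 0.00096). Pp3c2_15140 was among the first 2 higher members of both lines, at 2.49 ± 0.33 and 2.85 ± 0.35 (adjusted p = 3.2e-08 and 1.2e-08).

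At ZT2 the first 2 higher members stood higher in line 46 than in line 48. Pp3c2_31380 had 513, 102 and 393 CPM in line 46 and 16.7 and 13.1 CPM in line 48, against 8.41, 2.98, 13.8 and 3.76 CPM in WT. Line 46 was above all WT libraries, and line 48 overlapped with them. The log2 fold change of 4.82 ± 1.02 (edgeR adjusted p = 0.00017) became 0.86 without line 46, with adjusted p = 0.55. At ZT6 it varied widely, with 39.9, 245 and 563 CPM in line 46 and 14 and 272 CPM in line 48, against 0.39 to 58.5 CPM (median 12.5) in WT, and passed at 3.36 ± 0.71 (adjusted p = 0.00019). Pp3c2_14090 had 66.2, 41.3 and 61.5 CPM in line 46 and 15.2 and 20.0 CPM in line 48 at ZT2, against 3.09, 2.61, 3.57 and 2.82 CPM in WT. Here both lines were above all WT libraries (3.70 ± 0.40, adjusted p = 6.3e-10).

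The difference between the NDUFA5 KO lines is taken between libraries that did not choose the members. Its tests still share the gene filter, scaling and estimate of spread with the other libraries, because all were fitted together. With times averaged, 187 members (25.5%) were higher in line 46 than in line 48 and 0 were lower, where 1.72% and 1.31% of all genes were. The median log2 fold change was 0.30 over members and 0.02 over all genes. The called members ran from 0.26 to 1.13, with a median of 0.42 and a median standard error of 0.10. Of the 318 genes called higher in line 46 in the whole table, the 187 members made up 58.8%, and 12 others carried the Pp3c2 prefix. On the log2(CPM+1) scale 682 members (93.2%) were higher in line 46, against 42.7% of genes of other prefixes. The number of calls moved with single libraries, and the share of all genes with it, between 0.217% without 48-1 at ZT2 and 2.08% without 48-2 at ZT6. It was 32 without 48-1 at ZT2, 32 without 48-1 at ZT6, 51 without 48-2 at ZT0, 70 without 48-1 at ZT0, 78 without 46-3 at ZT6, 84 without 46-2 at ZT0, 104 without 46-3 at ZT2 and 114 without 46-1 at ZT2. With 46-3 at ZT6 taken as line 48, as its characteristics have it, 21 were called (0.168% of all genes). In the median over members that library stood at 1.05, beside 1.08 and 0.91 for line 46 and 0.52 and 0.86 for line 48 at ZT6.

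By time, the difference between the lines was largest at ZT2. There 365 members were higher in line 46 and 5 lower (8.49% and 7.42% of all genes), with a median of 0.55 over members and -0.01 over all genes. Without 48-1 the number was 79 (1.71% of all genes). In 442 members all 3 libraries of line 46 were above both of line 48, against 17.1% of all genes. At ZT0 edgeR called 0 members higher and 1 lower (0.0379% and 0.157% of all genes), 117 members had p under 0.05 before adjustment, against 11.2% of all genes, DESeq2 made 0 calls of higher members, and the median was 0.10 over members and 0.04 over all genes. At ZT6 edgeR and DESeq2 called 0 members higher, and edgeR called 0% of all genes. Before adjustment 158 members (21.6%) had p under 0.05, against 5.82% of all genes, and 681 members (93.0%) were higher in line 46 on the log2(CPM+1) scale, against 59.7% of genes of other prefixes. Every library of line 46 was above every library of line 48 in 258 members at ZT0 (25% of all genes) and in 310 at ZT6 (14.3%). Whether the line difference itself changed between times was not tested.

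The first members of the line comparison stood apart at ZT2. Pp3c2_26720 had 514, 327 and 533 CPM in line 46 and 109 and 123 CPM in line 48 at ZT2, against 67, 51.6, 122 and 70.2 CPM in WT. At ZT6 line 46 had 10.8, 18.7 and 41.2 CPM and line 48 had 7.53 and 21.3 CPM, and the lines overlapped. With times averaged it differed by 1.13 ± 0.31 (edgeR adjusted p = 0.033), a call that ended in 12 of 23 alternatives, among them leaving out 46-2 at ZT0 (0.98) or 48-1 at ZT6 (0.93). Pp3c2_14820 had 65.4, 36.8 and 67.5 CPM in line 46 and 12.2 and 12.1 CPM in line 48 at ZT2, and differed by 1.05 ± 0.23 with times averaged (adjusted p = 0.0096), which no longer passed without 46-2 at ZT0 (0.98) or 48-1 at ZT6 (0.94). At ZT2 alone Pp3c2_31380 (4.65 ± 1.19) and Pp3c2_29500 (3.82 ± 0.94) led, with adjusted p = 0.0056 and 0.0041, and both calls ended when either library of line 48 was left out. Lower in line 46 at ZT2 were Pp3c2_15140 (-2.02 ± 0.64, adjusted p = 0.025) and Pp3c2_2220 (-0.93 ± 0.32, adjusted p = 0.044), and these ended in 7 and 6 of 13 alternatives, leaving out either library of line 48 included. The single call at ZT0 was Pp3c2_24290, at 7.77 and 9.95 CPM in line 46 and 18.7 and 21.7 CPM in line 48 (-1.16 ± 0.21, adjusted p = 0.013), a call that ended without 46-2 or without 48-2.

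Members were found all along the ID order. The 877 Pp3c2 genes above the floor were cut into 10 blocks of 87 or 88 genes, from Pp3c2_90 to Pp3c2_38340. Each block held between 67 and 80 members, or 77.01% to 90.9% of its genes, and the median of their average difference in COX11 KO lay between 1.03 in block 8 and 1.16 in block 9. Genes outside the range were scattered. The members formed 126 runs of neighbouring IDs, the longest of 26 genes from Pp3c2_20850 to Pp3c2_21820. Of the 125 runs of other genes 110 were single genes, and the longest held 5 genes, from Pp3c2_25690 to Pp3c2_25930. Block 7 had 14 genes below 0.5 and block 6 had 2.

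**Figure D4:**
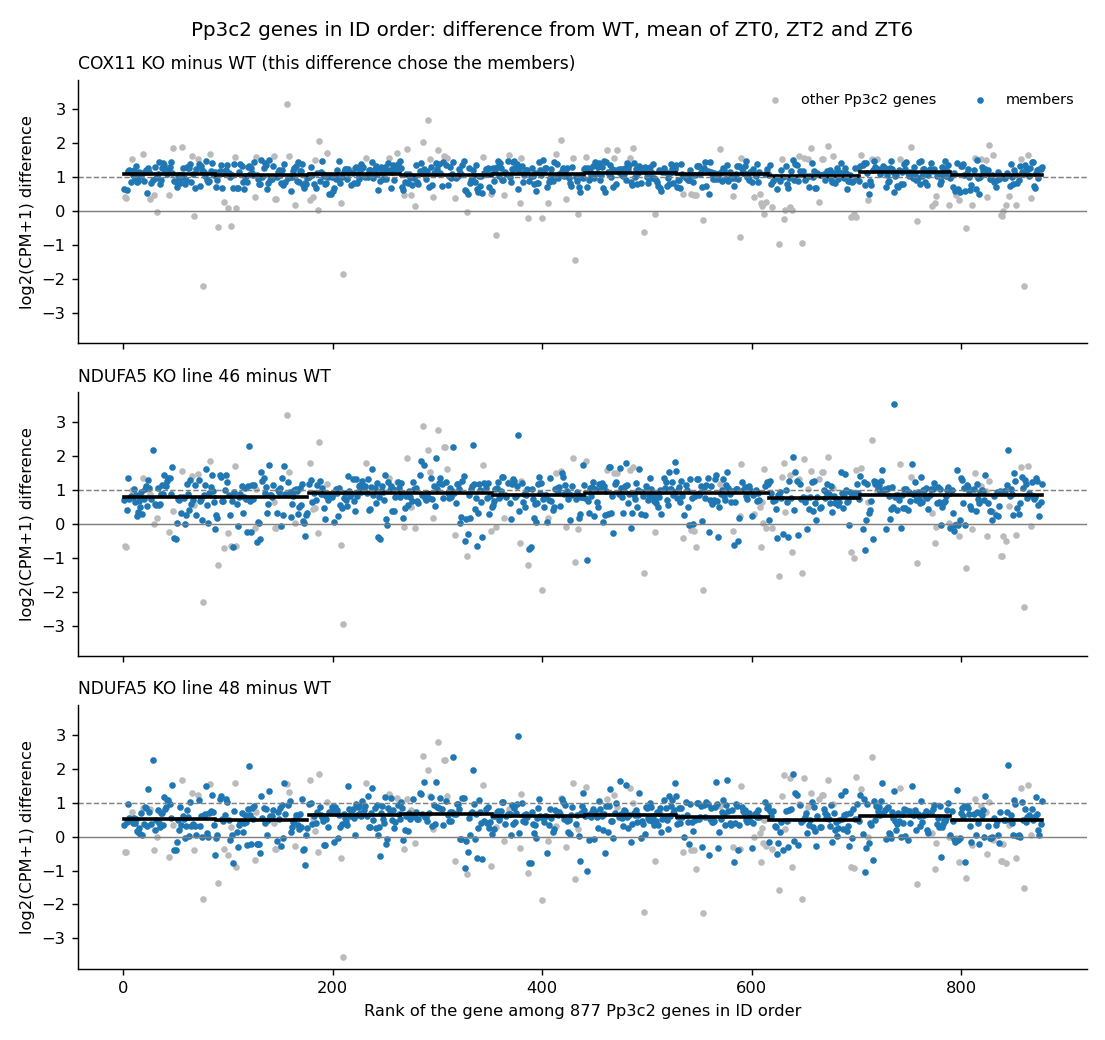
Difference from WT in log2(CPM+1), mean of 3 times, for 877 Pp3c2 genes in ID order, with members in blue, other Pp3c2 genes in grey and black bars at the member median of each of 10 blocks. The bars lie between 1.03 and 1.16 in COX11 KO, where the rule bounds them, and in every block they are lower in line 46 and lowest in line 48.

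In NDUFA5 KO the shift ran through every block. The mean over libraries of the block medians lay between 0.78 in block 2 and 0.93 in block 3 in line 46, and between 0.46 in block 2 and 0.68 in block 6 in line 48. In the library 48-1 at ZT2 the blocks ran between 0.04 and 0.35, so that its low value was shared by all of them. Blocks differed most within the 4 NDUFA5 KO libraries of ZT0, where block 4 was the highest and block 2 the lowest in each, with 0.91 to 1.08 in block 4 and 0.46 to 0.55 in block 2. At ZT6 block 4 was the lowest in all 5 NDUFA5 KO libraries. Higher calls in NDUFA5 KO made up 62.7% to 80.6% of the members of a block at ZT0, 52.7% to 71.6% at ZT2 and 75% to 89.2% at ZT6. Of all genes tested, 30%, 22.9% and 18.7% were called higher at these times. Members called higher in line 46 than in line 48, with times averaged, made up 19.4% to 37.3% of a block, against 1.72% of all genes.

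**Figure D5:**
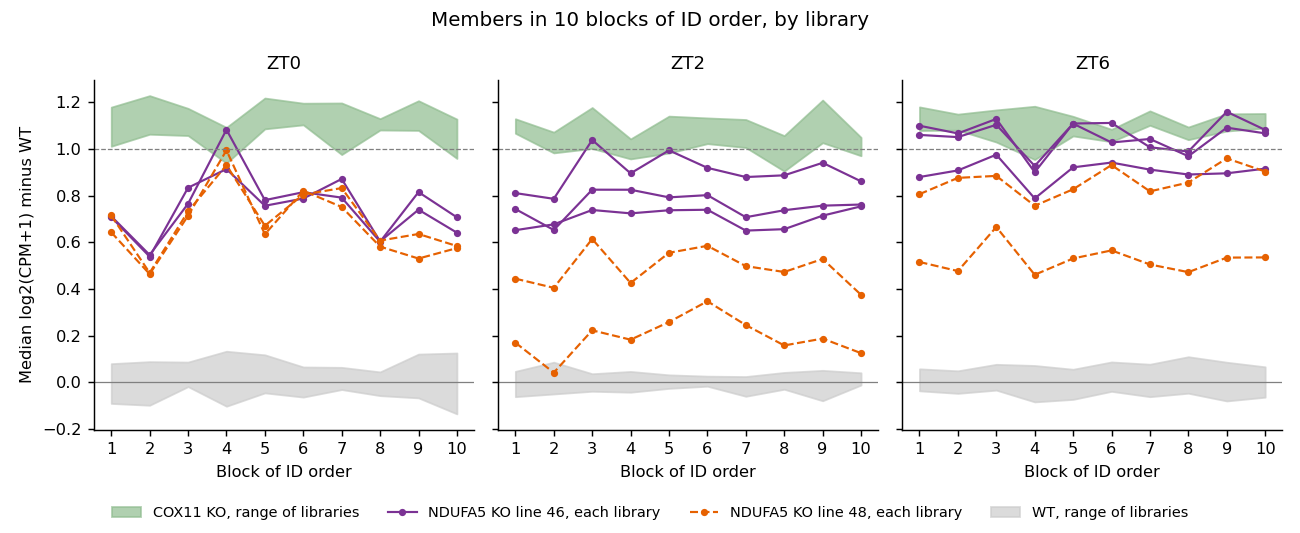
Median difference from WT in log2(CPM+1) over the members of each of 10 blocks of ID order, with a line for each NDUFA5 KO library and bands for the range over COX11 KO and WT libraries. Lines of 46 and 48 run together at ZT0, with a peak at block 4, and apart at ZT2, where 48-1 stays between 0.04 and 0.35, while at ZT6 48-1 is below line 46 in every block and 48-2 comes within the libraries of line 46 in block 9 (0.96, beside 0.90 in 46-2).

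Between the WT times the members were called at shares near those of all genes at ZT2, and with more lower calls at ZT6. All 6 WT libraries at ZT0 carry code letter Z and all 4 at ZT2 carry A. Time of day and letter therefore cannot be told apart between these groups, whereas WT at ZT6 held both letters. Of the members, 194 members were higher and 177 lower at ZT2 than at ZT0 (26.5% and 24.2%, against 25% and 24.8% of all genes, and 50.7% against 49.7% in either direction). At ZT6, 186 were higher and 252 lower than at ZT0 (25.4% and 34.4%, against 28.5% and 28.3% of all genes, and 59.8% against 56.8% in either direction). Pp3c2_35200 was higher at ZT2, with 1015, 899, 1105 and 715 CPM against 46.98 to 101 CPM (median 71.4) at ZT0 (3.66 ± 0.40, edgeR adjusted p = 2.4e-10). Pp3c2_27180 was lower, with 8.41, 5.59, 7.15 and 5.26 CPM at ZT2 against 32.4 to 98.4 CPM at ZT0 (-3.51 ± 0.26, adjusted p = 3.4e-15). Pp3c2_26720 was also among the first higher at ZT2 (2.5 ± 0.39) and Pp3c2_14090 among the lower (-3.47 ± 0.39), with adjusted p = 1.0e-06 and 8.0e-10. At ZT6 the first higher were Pp3c2_31380 (3.88 ± 1.03) and Pp3c2_24270 (2.61 ± 0.27), with adjusted p = 0.0014 and 8.2e-11, and the first lower Pp3c2_12680 (-3.39 ± 0.20) and Pp3c2_17560 (-2.52 ± 0.15), with adjusted p = 2.2e-18 and 1.6e-18.

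The COX11 KO effect differed between times in about the share of members found over all genes. By the interaction test, the effect at ZT2 was larger than at ZT0 in 36 members and smaller in 35 (4.5% and 3.92% of all genes, 8.42% in either direction), and at ZT6 larger in 103 and smaller in 100 (13% and 13.6%, 26.6% in either direction). The median interactions were -0.01 and -0.01. The share of larger effects among the ZT2 calls moved with the scaling, in the members as in all genes. It was 50.7% of called members and 53.5% of all called genes with TMM, 60.9% and 61.4% with size factors of the DESeq2 type, 64.7% and 63.4% with TMM computed without Pp3c2 genes, and 43.3% and 45.8% with library totals only.

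In NDUFA5 KO more members had a smaller effect at the later times than a larger one. From ZT0 to ZT2 the WT libraries go from code letter Z to A, while NDUFA5 KO holds both letters at both times. The comparison of the effects at ZT0 and ZT2 thus carries a difference in letter. The effect at ZT2 was larger than at ZT0 in 59 members and smaller in 252 (16.4% and 16.3% of all genes, 32.7% in either direction), with a median interaction of -0.33 over members and 0.07 over all genes. At ZT6 it was larger in 143 and smaller in 240 (23.2% and 23.1%, 46.2% in either direction), with medians of -0.15 and 0.07. Another scaling moved this split. Where libraries were scaled by totals alone, 44.3% of the called members were larger at ZT2 and 69.9% at ZT6 (73.5% and 75.5% of all called genes), against 18.97% and 37.3% with TMM (50.03% and 50.08%), and the median of all genes moved to 0.33 and 0.44. Relative to that median, the members stood at -0.41 and -0.22 with library totals and at -0.40 and -0.23 with TMM. These values too could hardly differ, because a scaling shifts all genes of a library almost alike.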

How the data were processed

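Libraries were made from polyadenylated RNA with a kit that reads the 3' end of transcripts (QuantSeq 3' mRNA-Seq FWD), per the labels' protocols. The authors used Bowtie2 2.2.5, SAMtools 1.6 and HTSeq 2.0.2, per the submitters' processing notes. The genome build and annotation were not stated there. The deposited values are estimated counts per gene, not normalized, and 2.35% of them were not whole (tolerance 1e-06), so they were rounded for the tests, although plain counts had been planned for. Counts on 5 HTSeq summary lines (26.2% to 39.9% of each library) were left out, as were 10 of 57 columns that matched no sample label. No 2 libraries compared within a group agreed within sampling noise (chi-square per gene of at least 2.44 over 105 pairs).

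Differences between group means were taken on log2(CPM+1). Tests used edgeR 4.0.16 in R 4.3.3 (quasi-likelihood, TMM scaling, filterByExpr, 18460 genes, Benjamini-Hochberg adjustment per comparison), with a mean per genotype and time, or per line and time for comparisons of lines. Every adjusted p is from that fit across all genes, and ± beside a log2 fold change is its standard error. DESeq2 1.42.0 was an alternative, with other scalings, filters, floors, code letter, replicate block and libraries left out.

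The members, lists and tests were chosen with earlier results of these data known. Named genes are the 2 members highest in WT and, in each comparison that did not choose the members, the first 2 higher and the first 2 lower by log2 fold change among called members with an average log2 CPM above 1; members left over are given by counts. edgeR's common coefficient of variation between libraries came to 21.8%. Replicate numbers were not taken to pair samples across groups: of 29 same-numbered pairs 9 deviated together with a correlation over 0.1 (range -0.39 to 0.47).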

Additional observations from a re-analysis of the deposited data

Results flagged for a closer look

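Sets of 4 to 8 libraries were searched for named members, the member median and the members' share of counts. Of 119 sets, 7 had 1 library far from the others, where chance alone gives about 1 in 20. Pp3c2_16400 had 53.7 CPM in COX11 KO 150-1 at ZT0, and the next library had 29.95 CPM. In COX11 KO 150-3 at ZT2 Pp3c2_15730 had 155 CPM, below the next at 202 CPM. Pp3c2_6770 had 3114 CPM in COX11 KO 150-1 at ZT6, with the next at 4446 CPM. Pp3c2_23990 had 99.9 CPM in NDUFA5 KO 46-2 at ZT0, with the next at 187 CPM. Pp3c2_13670 had 6762 CPM in NDUFA5 KO 48-1 at ZT6, with the next at 9654 CPM. In WT 1 at ZT2 Pp3c2_6770 had 1445 CPM, below the next at 1609 CPM, and Pp3c2_16400 had 14.4 CPM, above the next at 12.2 CPM.

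The knockout effect of some members differed between times by edgeR's interaction test. For COX11 KO, the effect at ZT2 exceeded that at ZT0 by 2.43 ± 0.53 in Pp3c2_37210 and 1.58 ± 0.26 in Pp3c2_8410 (log2 scale, SE; adjusted p = 0.0023 and 0.00013). It was smaller at ZT2 in Pp3c2_16400 (-1.28 ± 0.35, adjusted p = 0.015) and Pp3c2_15730 (-1.22 ± 0.22, adjusted p = 0.00029). At ZT6 it exceeded that at ZT0 by 2.30 ± 0.46 in Pp3c2_37210 and 2.15 ± 0.29 in Pp3c2_12680 (adjusted p = 0.00016 and 2.4e-07), and was smaller in Pp3c2_34520 (-2.22 ± 0.52, adjusted p = 0.0012) and Pp3c2_30600 (-1.99 ± 0.67, adjusted p = 0.023).

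For NDUFA5 KO, the effect at ZT2 exceeded that at ZT0 by 4.72 ± 0.51 in Pp3c2_14090 and 3.96 ± 0.77 in Pp3c2_17540 (edgeR adjusted p = 1.1e-09 and 8.0e-05). It was smaller at ZT2 in Pp3c2_13870 (-3.47 ± 0.25, adjusted p = 1.9e-14) and Pp3c2_23990 (-3.31 ± 0.25, adjusted p = 7.3e-14). At ZT6 it exceeded that at ZT0 by 2.75 ± 0.69 in Pp3c2_17540 and 2.53 ± 0.86 in Pp3c2_30600 (adjusted p = 0.0011 and 0.014), and was smaller in Pp3c2_12680 (-3.68 ± 0.31, adjusted p = 4.2e-13) and Pp3c2_36840 (-3.67 ± 0.22, adjusted p = 1.0e-17).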

How the results depend on the processing

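No named test changed its direction, and 37 of 50 kept their call under every alternative run, while 13 lost it under at least 1. Of 217 alternative counts of called members, those without 1 library aside, 198 were within 1.5 times of the count reported. A WT floor of 20 CPM left 424 members, read from the same fit, so the shares of all genes called are unchanged. Among these, in order of time, NDUFA5 KO had 325, 266 and 346 higher calls (30%, 22.9% and 18.7% of all genes). COX11 KO, the comparison that chose the members, had 378, 372 and 381 (19.9%, 13.7% and 20.7%). With that floor 364 were higher in line 46 and 310 in line 48 than in WT (29.9% and 25.7% of all genes). At ZT2 233 were higher in line 46 than in line 48 (8.49%). The effect at ZT6 differed from that at ZT0 in 131 in COX11 KO and 249 in NDUFA5 KO (26.6% and 46.2% of all genes). That at ZT2 differed in 201 in NDUFA5 KO (32.7%), and in WT 227 changed at ZT2 and 284 at ZT6 (49.7% and 56.8%). These counts are lower because fewer genes were counted. In NDUFA5 KO at ZT2, 244 members were higher with letter A only and 191 without line 46 (18.3% and 14.05% of all genes). Between lines 46 and 48 with times averaged, 21 were called with 46-3 at ZT6 taken as line 48 and 78 without it (0.168% and 0.564% of all genes). At ZT0 1 was called with code letter as a covariate (0.0488%). The cause was not tested. The median member stood at 0.89 in line 150 and 0.89 in line 152 with TMM scaling, at 0.93 and 0.94 with TMM computed without Pp3c2 genes, and at 0.96 and 0.95 with a pseudocount of 5.

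Leaving out 1 library at a time gave 32 to 211 calls between lines 46 and 48 with times averaged (among them 51, 70, 78, 84, 104 and 114), 0 to 1 at ZT0 and 79 to 306 at ZT2. The number of members stayed between 723 and 738. With the replicate number as a block, 523, 470 and 576 members were higher in NDUFA5 KO at the 3 times (29.3%, 22.2% and 14.4% of all genes) and 152 in line 46 than in line 48 (1.27%), and the block moved no count of calls by over 1.5 times. The lines rest on 2 or 3 libraries per time, which limits the single-time comparisons most.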

Other observations

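The 242 genes called higher in line 48 than in line 46, with times averaged, included 0 genes of the Pp3c2 prefix. Of them 55 (22.7%) carried the prefix Pp3c25 and 43 (17.8%) the prefix Pp3c27. Called higher in line 48 were 161 genes without library 46-3 at ZT6, 36 with it taken as line 48 and 70 without 48-1 at ZT2, so these shares rest on a count that moves with single libraries; their make-up without those libraries was not computed. Library NDUFA5 KO 46-3 at ZT6, whose labels name both lines, had a member median of 1.05.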
